A study of Mus musculus with 7 samples.

Results

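The genes described here encode the glutathione peroxidases and the thioredoxin system, with the enzymes that make and recycle glutathione: Gpx1, Gpx3, Gpx4, Txn1, Txn2, Txnrd1, Txnrd2, Gclc, Gclm and Gsr. They were taken by name, with all 19 probe sets that the array's annotation gives to these 10 genes alone, out of 12393 genes with a probe set. The 10 genes were listed with earlier results of the same knockout comparison known, so their differences between the groups are a description and carry no p-value of their own. The 7 mice were males of 21 months, and RNA of the left ventricle of each was hybridized to a single-colour MOE430A array. The 3 mice labelled eNOS knockout, numbered M4, M10 and M140, are knockouts by their label alone. eNOS is endothelial nitric oxide synthase, the nitric oxide-producing enzyme of vessel lining encoded by Nos3. The 4 mice labelled wild type, numbered M23, M125, M128 and M158, have the same sex and age. Values of single arrays are given in this order of mice within each group. The knockout allele, the strain and the cells within the ventricle that gave the RNA are not described in the labels, and a keyword names exercise without assigning it to any mouse.

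Glutathione peroxidases use glutathione to reduce hydrogen peroxide and lipid peroxides, and thioredoxins reduce disulfides in other proteins. Glutathione reductase and the thioredoxin reductases return these carriers to their reduced state with electrons from NADPH. Several of the enzymes are selenoproteins, which carry selenocysteine in the active site, and the family works in separate places: Gpx3 is secreted, Txn1 and Txnrd1 are mainly cytosolic, and Txn2 and Txnrd2 are mitochondrial. In heart muscle, which is rich in mitochondria, these systems remove peroxides formed during respiration.

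Promoter windows are shown for Gpx3 and Txnrd1, to which the probe sets furthest above wild type belong (1449106_at and 1421529_a_at). The other tested Txnrd1 probe set differed less, as given below. Windows are also shown for Gclm, a textbook target of the antioxidant transcription factor NRF2, and for Txnrd2, the mitochondrial partner of Txnrd1. Each window is RefSeq sequence of build GRCm38.p6, printed 5′ to 3′ on the gene's strand, with 250 bases before and 50 after a start site. Capitals mark matches, on either strand, to TGACNNNGC, the core of the antioxidant response element that NRF2 binds. The Txnrd1 window, the second of its 3 start sites in genome order, was picked because it alone of the 3 holds the core.
Gpx3, chr11:54902604-54902903, plus strand: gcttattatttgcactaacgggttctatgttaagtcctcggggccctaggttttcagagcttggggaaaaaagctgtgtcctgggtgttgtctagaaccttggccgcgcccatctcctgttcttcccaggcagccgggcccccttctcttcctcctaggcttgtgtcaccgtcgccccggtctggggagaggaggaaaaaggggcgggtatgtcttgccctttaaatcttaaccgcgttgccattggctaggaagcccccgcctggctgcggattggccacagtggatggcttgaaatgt
Txnrd1, chr10:82858956-82859255, plus strand: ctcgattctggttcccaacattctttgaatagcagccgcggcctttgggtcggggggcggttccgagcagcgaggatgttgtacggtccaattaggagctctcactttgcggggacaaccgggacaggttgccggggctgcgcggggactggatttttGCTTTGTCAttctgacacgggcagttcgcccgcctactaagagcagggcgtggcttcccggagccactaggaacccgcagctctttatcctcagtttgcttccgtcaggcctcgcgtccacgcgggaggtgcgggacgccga
Gclm, chr3:122245307-122245606, plus strand: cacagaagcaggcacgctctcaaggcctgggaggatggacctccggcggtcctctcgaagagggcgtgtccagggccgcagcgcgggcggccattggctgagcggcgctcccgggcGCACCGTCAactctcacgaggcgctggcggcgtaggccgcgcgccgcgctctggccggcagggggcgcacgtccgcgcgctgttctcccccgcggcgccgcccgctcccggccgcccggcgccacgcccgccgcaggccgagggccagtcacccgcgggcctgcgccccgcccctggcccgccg
Txnrd2, chr16:18426167-18426466, plus strand: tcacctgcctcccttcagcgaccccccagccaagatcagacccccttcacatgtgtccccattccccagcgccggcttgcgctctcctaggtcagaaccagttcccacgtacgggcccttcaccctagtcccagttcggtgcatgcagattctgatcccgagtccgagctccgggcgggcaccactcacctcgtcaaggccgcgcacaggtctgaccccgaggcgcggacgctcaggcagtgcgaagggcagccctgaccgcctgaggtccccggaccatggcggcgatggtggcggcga
The Txnrd1 window held a match to the core on its minus strand (GCTTTGTCA as printed, from position -92 relative to the start), and so did the Gclm window (GCACCGTCA, from position -134). The table held 13 windows for 8 of the 10 genes, with none for Gclc and Gsr, and the core matched in 2 of the 13. Over all 32851 windows of the table, 12.4% held a match. The GC box GGGCGG, searched on both strands, matched in 10 of the 13 windows, against 35.7% of all windows. The 13 are not independent, since Gpx4 gives 4 of them and some of these overlap each other. The TATA box TATAAA, searched on both strands, matched in 1 window, that of Txn1, against 13.6% of all. In the 13 windows, 0 pairs of matches to different motifs overlapped. These are letter matches in a short window and show neither binding nor its absence.

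Median intensities were 671 to 699 per array, the lowest values 86.5 to 92.3 and the upper limits 44145 to 45552, a level that ventricular muscle markers such as Myl2 had reached on all 7 arrays. Arrays were hybridized on 4 days: M140 and M128 on day 1, M125 on day 2, M4 and M10 on day 3, and M23 and M158 on day 4, so that day 1 alone held both groups. The probe set of Nos3 read 1145, 1413 and 1135 on the knockout arrays, against 791, 1163, 872 and 1058 on the wild-type arrays. Its log2 difference was 0.35 ± 0.15 (SE; limma adjusted p = 0.42, exact two-sided permutation p = 0.171, where 0.0286 is the smallest possible), so this probe set, whose place relative to the disrupted part is not given, does not check the labels. Atrial muscle markers (4 of 4 tested) summed to between 2681 and 34815 on the knockout arrays and between 3291 and 42299 on the wild-type arrays, highest on M10 and M125. Macrophage markers (4 of 5 tested, Fcgr1 below the filter) summed to 15152 to 16628 on the knockout arrays and 10918 to 13169 on the wild-type arrays. In whole tissue, fewer cells of a type and less RNA per cell cannot be told apart. p-values set a difference between the groups against the spread between these arrays, and do not account for hybridization day.

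The secreted peroxidase gene Gpx3 and 1 probe set of the cytosolic reductase gene Txnrd1 read higher on every knockout array than on every wild-type array. The 5 tested probe sets of the mitochondrial genes Txn2 and Txnrd2, 3 of them reading Txn2, had knockout means below the wild type by 0.01 to 0.31 on the log2 scale. Within day 1, Txn2 was not lower on 2 of its 3 probe sets. The remaining probe sets differed by -0.19 (Gpx4 1456193_x_at) to 0.21 (Gclm). A probe set was tested where its intensity lay above the 40th percentile of its array (514 to 542) on at least 3 arrays, which 16 of the 19 probe sets did, covering all 10 genes. Just outside was Gsr 1421816_at, at 443 to 568 and above the percentile on 2 arrays, and just inside was Txnrd1 1424486_a_at, at 529 to 665. The other untested probe sets, Gclc 1424296_at at 243 to 328 and Txnrd1 1424487_x_at at 191 to 228, lay below the percentile on every array. No member was near the upper limit; the highest, Gpx4 1456193_x_at, reached 70.1% of it. Of the 16 tested probe sets, 4 had groups that did not overlap, 2 higher and 2 lower in the knockout (25%), against 9.3% of all 13836 tested probe sets, of which 4.97% were higher and 4.34% lower. The 4 belonged to Gpx3, Gpx4, Txnrd1 and Txnrd2, while Gpx1, Txn1, Txn2, Gclc, Gclm and Gsr had no probe set apart. Without knockout M140 the count was 8, 2 higher and 6 lower. Groups of 2 and 4 arrays are apart more easily than groups of 3 and 4. The share over all probe sets was not counted without M140, so the 8 have no background beside them. By limma 0 of the 13836 probe sets (0%), and so 0 of the 16, passed an adjusted p of 0.05, while an unadjusted p under 0.05 was found for 1636 (11.8%). Over the 16 the median log2 difference was -0.06, against 0.00 over all tested probe sets.

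**Figure D1:**
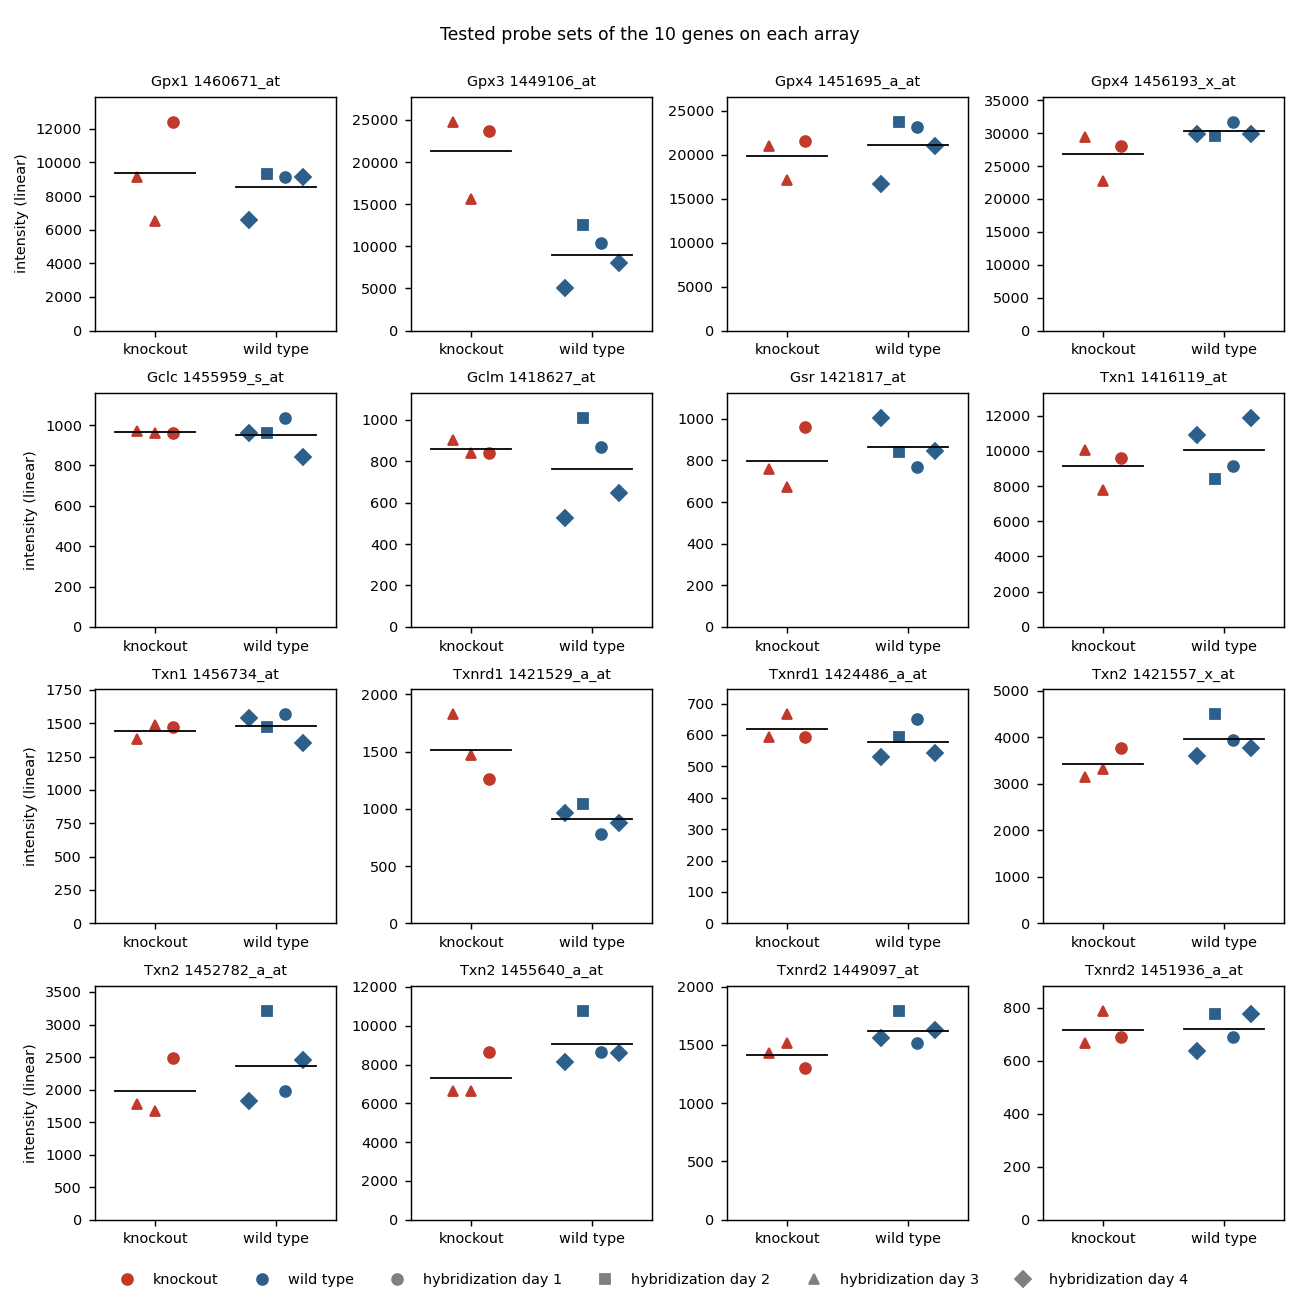
Intensity (linear scale from 0) of the 16 tested probe sets on the 3 knockout arrays (red, left) and the 4 wild-type arrays (blue, right). Marker shapes give the hybridization day and bars the group means; Gpx3 and Txnrd1 1421529_a_at stand apart upwards, Gpx4 1456193_x_at and Txnrd2 1449097_at downwards by less.

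Gpx3 encodes the peroxidase of plasma and extracellular fluid. Its single probe set, 1449106_at, read 24783, 15569 and 23739 on the knockout arrays, against 5107, 12481, 10332 and 7959 on the wild-type arrays. The lowest knockout array, M10, lay above the highest wild-type array, M125. Knockout arrays averaged 21364 ± 5045 (SD, n = 3) and wild-type arrays 8970 ± 3169 (SD, n = 4), a ratio of 2.38. The log2 difference was 1.30 ± 0.31 (SE), against a spread within groups of 0.49 (SD), and 35 of the 13836 tested probe sets differed by more in either direction. Within day 1, knockout M140 exceeded wild-type M128 by 1.20 on the log2 scale.

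The wild-type values of Gpx3 ran in the order of the ratio of 5′ to 3′ Gapdh signal, a control of RNA integrity, which was 0.0978 on M23, 0.34 on M158, 0.683 on M128 and 0.777 on M125. On the knockout arrays the ratio was 0.532 on M4, 0.521 on M10 and 0.759 on M140. With M23 and M158 left out, the log2 difference of Gpx3 was 0.88, and with the ratio as a covariate it was 1.01. Within day 1, where the ratios of M140 and M128 lay close, the difference stood as given above. The macrophage marker sum, given above, also separated the groups. So did Alas2, the 1 tested red blood cell marker of 5, at 6236, 6484 and 2598 on the knockout arrays, against 1649, 1675, 2123 and 2050.3 on the wild-type arrays. The part of either in the Gpx3 difference was not tested.

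**Figure D2:**
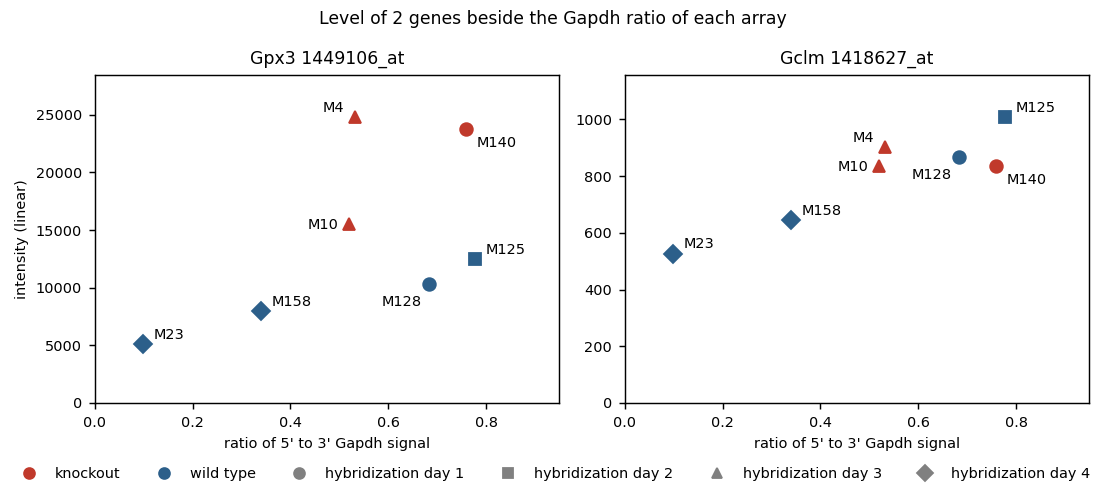
Intensity of Gpx3 (left panel) and Gclm (right panel), on linear axes from 0, against the ratio of 5′ to 3′ Gapdh signal of each array, with knockout arrays in red and wild-type arrays in blue. The 3 knockout arrays lie above all wild-type arrays for Gpx3 at ratios of 0.521 to 0.759, whereas for Gclm they lie among wild-type M128, M125 and M158.

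Gpx1 encodes the abundant peroxidase of cytosol and mitochondria. Its probe set read 9147, 6502 and 12427 on the knockout arrays, against 6601, 9314, 9147 and 9120 on the wild-type arrays. The knockout arrays held both the highest and the lowest value, and the groups overlapped. The log2 difference was 0.10 ± 0.23 (SE), and its sign turned when knockout M140 was left out (-0.13). Within day 1 it was 0.44.

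Gpx4 encodes the peroxidase that reduces lipid peroxides inside membranes. Its probe set 1456193_x_at read 29437, 22761 and 28093 on the knockout arrays, against 29886, 29634, 31750 and 29886 on the wild-type arrays. All 3 knockout arrays lay below the wild-type arrays, M4 by a narrow margin, and the log2 difference was -0.19 ± 0.09 (SE). Without knockout M10 it was -0.07, and with quantile normalization this probe set was the 1 member whose groups ceased to be apart. The other probe set, 1451695_a_at, read 17126 to 21503 in the knockout and 16655 to 23748 in the wild type, with overlapping groups and a difference of -0.08 ± 0.14. A suffix of x marks probes that can cross-hybridize with other transcripts, and the mouse genome also carries Gpx4 pseudogenes, so neither value is specific beyond doubt.

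Txnrd1 encodes the cytosolic thioredoxin reductase. Its probe set 1421529_a_at read 1824, 1466 and 1261 on the knockout arrays, against 962, 1042, 781 and 872 on the wild-type arrays. Every knockout array exceeded every wild-type array, with 1517 ± 285 (SD, n = 3) in the knockout and 915 ± 113 (SD, n = 4) in the wild type on average, a ratio of 1.66. The log2 difference was 0.71 ± 0.15 (SE), against a spread within groups of 0.22, and it was 0.68 within day 1. The difference ran from 0.57 without knockout M4 to 0.86 with array weights over all alternatives tried. The gene's other tested probe set, 1424486_a_at, read 595, 665 and 595 on the knockout arrays, against 529, 595, 652 and 541 on the wild-type arrays. These groups overlapped, with a difference of 0.09 ± 0.09, so that the probe sets of Txnrd1 disagree. Which of the gene's transcripts each one reads is not stated in the files.

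Txn1, the cytosolic thioredoxin that Txnrd1 reduces, read 10047, 7780 and 9584 on its brighter probe set, 1416119_at, on the knockout arrays, against 10904, 8411, 9116 and 11856 on the wild-type arrays. The highest values were those of M23 and M158, the day 4 arrays with the lowest Gapdh ratios, and the groups overlapped. The log2 difference was -0.14 ± 0.16 (SE). It was 0.05 with those arrays left out and 0.07 within day 1. The other probe set, 1456734_at, read 1379 to 1485 in the knockout and 1348 to 1565 in the wild type, a difference of -0.03 ± 0.09.

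Txn2, the mitochondrial thioredoxin, was read by 3 probe sets, and on each of them knockout M4 and M10 lay below all 4 wild-type arrays while knockout M140 lay among these. On 1455640_a_at the values were 6660, 6611 and 8666 on the knockout arrays, against 8133, 10763, 8658 and 8601 on the wild-type arrays. The log2 difference was -0.31 ± 0.15 (SE). On 1421557_x_at the values were 3149, 3327 and 3771 on the knockout arrays, against 3602, 4489, 3948 and 3771 on the wild-type arrays, a difference of -0.21 ± 0.13. On 1452782_a_at they were 1781, 1668 and 2489 on the knockout arrays, against 1831, 3209, 1978 and 2452 on the wild-type arrays, a difference of -0.24 ± 0.23. The 3 probe sets read the same gene and are not independent, and the x in 1421557_x_at marks probes that can cross-hybridize.

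M4 and M10 shared hybridization day 3, which held no wild-type array. Within day 1 the Txn2 differences were 0.00, -0.07 and 0.33 on 1455640_a_at, 1421557_x_at and 1452782_a_at, so day and genotype cannot be told apart for the lower values of M4 and M10. Wild-type M125, an array with much atrial transcript, was the highest on all 3 probe sets. Without knockout M10 and wild-type M125, the differences were -0.16, -0.13 and 0.02 in the same order.

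Txnrd2, the mitochondrial thioredoxin reductase, read 1432, 1514 and 1301 on probe set 1449097_at on the knockout arrays, against 1560, 1792, 1516 and 1624 on the wild-type arrays. The knockout arrays lay below the wild-type arrays, with M10 and M128 almost equal. The log2 difference was -0.19 ± 0.10 (SE), with -0.22 within day 1, and it stayed between -0.24 and -0.14 over the alternatives tried. The gene's other probe set, 1451936_a_at, read 669 to 788 in the knockout and 636 to 778 in the wild type, a difference of -0.01 ± 0.10.

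Gclc and Gclm encode the catalytic and modifier subunits of the ligase that makes the first, rate-limiting bond of glutathione. Gclc 1455959_s_at read 972, 962 and 962 on the knockout arrays, against 962, 962, 1035 and 843 on the wild-type arrays. Only 4 distinct values occurred among the 7 arrays, since the deposited table repeats values exactly, and the difference was 0.03 ± 0.08 (SE). Gclm 1418627_at read 902, 837 and 837 on the knockout arrays, against 527, 1007, 867 and 644 on the wild-type arrays. The wild-type arrays spanned the knockout arrays, in the order of their Gapdh ratios, as the plot of level against that ratio shows. The difference of Gclm was 0.21 ± 0.20, and it was -0.12 without M23 and M158 and 0.02 with the Gapdh ratio as a covariate.

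Gsr, the glutathione reductase, read 758, 672 and 962 on probe set 1421817_at on the knockout arrays, against 1004, 839, 770 and 845 on the wild-type arrays. The groups overlapped, with a log2 difference of -0.12 ± 0.14 (SE) and one of 0.32 within day 1. No probe set of Gclc, Gclm or Gsr had groups apart.

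By place of the protein, the probe set of the secreted form differed by 1.30 on the log2 scale. The 6 probe sets of Txn1, Txnrd1, Gclc and Gclm, which work in the cytosol, had a median difference of 0.06 and ranged from -0.14 to 0.71. The 4 of Gpx1, Gpx4 and Gsr, which serve cytosol and mitochondria, had a median of -0.10 and ranged from -0.19 to 0.10. The 5 of the mitochondrial Txn2 and Txnrd2 had a median of -0.21 and ranged from -0.31 to -0.01. Of these 5, 3 read Txn2 alone, and signs turned on some: Txn2 1452782_a_at was 0.33 within day 1 and 0.02 without M10 and M125, and Txnrd2 1451936_a_at was above 0 in 4 alternatives. Over all tested probe sets, 6844 differences were above 0 and 6992 below.

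**Figure D3:**
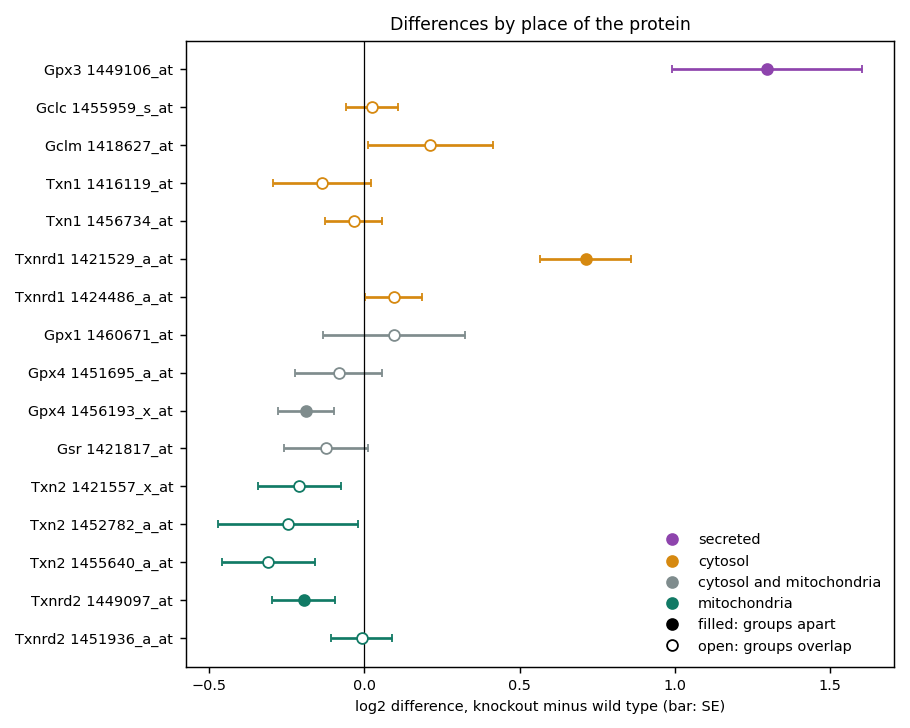
Log2 difference, knockout minus wild type, of each tested probe set with its SE, grouped by the place of the protein. Filled points have groups that do not overlap; Gpx3 lies at 1.30 and Txnrd1 1421529_a_at at 0.71, while the 5 mitochondrial points lie between -0.31 and -0.01.

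Forms were also set against each other within each array, as the log2 ratio of their brightest probe sets centred on the mean of the 7 arrays, which shows unequal change and not which partner changed. For Txnrd1 over Txnrd2 this ratio was 0.78, 0.39 and 0.39 on the knockout arrays, against -0.26, -0.34, -0.51 and -0.45 on the wild-type arrays. Since Txnrd1 1421529_a_at was higher and Txnrd2 1449097_at lower on every knockout array, this ratio had to separate the groups and restates those values, averaging 0.52 ± 0.23 (SD, n = 3) in the knockout and -0.39 ± 0.11 (SD, n = 4) in the wild type, a difference of 0.91. It was 0.90 within day 1. With the mean of all tested probe sets of each gene in place of the brightest it was 0.50, since the other Txnrd1 and Txnrd2 probe sets differed less.

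For Gpx3 over Gpx1 the centred ratio was 0.91, 0.74 and 0.41 on the knockout arrays, against -0.89, -0.10, -0.35 and -0.72 on the wild-type arrays. These groups were also apart, with a difference of 1.20 over all arrays and 0.76 within day 1. Gpx3 alone was already apart, at 1.30, while Gpx1 overlapped at 0.10. The wild-type values of this pair rose with the Gapdh ratio of their arrays, as those of Gpx3 did, so the pairing did not remove that order. For Txn1 over Txn2 the ratio was 0.37, 0.01 and -0.08 on the knockout arrays, against 0.20, -0.58, -0.15 and 0.24 on the wild-type arrays. The groups overlapped and differed by 0.17, less than the SD of either group. Whether the pairs differ from each other was not tested.

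**Figure D4:**
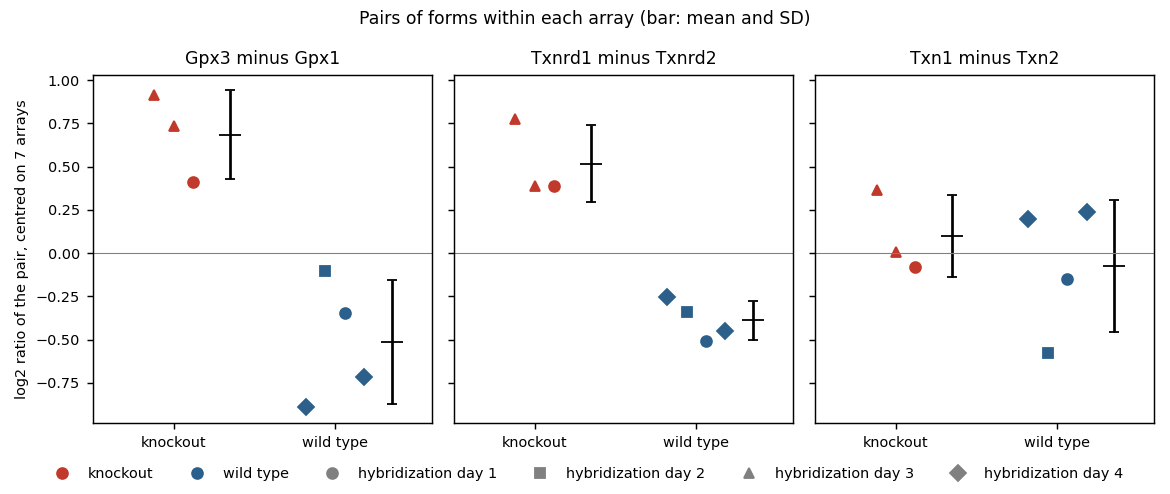
Centred log2 ratio of paired forms on each array, for Gpx3 over Gpx1, Txnrd1 over Txnrd2 and Txn1 over Txn2, with the knockout left of the wild type, group means and SD. The first pair separates the groups by 1.20, as Gpx3 alone already did by 1.30. The second separates them by 0.91, as its separate probe sets already did, and the third overlaps.

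Other genes of these pathways are given as counts and medians, with no test of a list. Of 91 genes on 7 lists, 78 had a probe set of their own and 68 were tested. By limma 0 of the 68 passed an adjusted p of 0.05, against 0 of 8869 tested genes (0%), and an unadjusted p under 0.05 was reached by 7, of which 4 were higher and 3 lower in the knockout (10.3%, against 12.1% of all tested genes, with 6.74% higher and 5.4% lower). The count of 7 became 4 without knockout M4, 11 without wild-type M125 and 17 with array weights. The share of all tested genes at an unadjusted p was not counted in these settings. Over all tested genes, the number past an adjusted p of 0.05 itself ran from 0 to 403 over the alternatives. The groups were apart for 6 of the 68 (8.82%), 3 higher and 3 lower, against 10.2% of all tested genes, with 5.28% higher and 4.88% lower.

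Genes of glutathione supply and turnover had a median log2 difference of -0.03 over 10 tested of 15. Slc3a2, the heavy chain of the cystine and other amino acid transporters, averaged 2389 ± 198 (SD, n = 3) in the knockout and 1700 ± 195 (SD, n = 4) in the wild type, a difference of 0.49 ± 0.13 (SE; limma adjusted p = 0.236). Abcc1, an exporter of glutathione conjugates, differed by 0.47 ± 0.16 (limma adjusted p = 0.324). Chac2, which breaks glutathione down, averaged 577 ± 149 (SD, n = 3) in the knockout and 984 ± 272 (SD, n = 4) in the wild type, a difference of -0.75 ± 0.22 (limma adjusted p = 0.276). All 3 had groups apart, which is 30% of the 10 tested, against 10.2% of all tested genes. The cystine carrier Slc7a11 and the synthase Gss were below the filter.

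The NRF2 system and its targets had a median of 0.05 over 14 tested of 15, with 1 gene at an unadjusted p under 0.05 in each direction. Blvrb, a biliverdin reductase, had groups apart at -0.26 ± 0.09 (SE; limma adjusted p = 0.324). Ephx1, an epoxide hydrolase named after its values were seen, overlapped at 0.68 ± 0.26. Its wild-type arrays read 1631, 3491, 2589 and 2275, rising with their Gapdh ratios as for Gpx3 and Gclm. Within day 1 the Ephx1 difference was 0.83, and the part of the Gapdh ratio in it was not tested. NRF2 itself (Nfe2l2) and its inhibitor Keap1, also named after their values were seen, differed by 0.10 ± 0.11 and 0.06 ± 0.13.

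Genes of NADPH supply had a median of -0.02 over 12 tested of 14, and Mthfd2, a mitochondrial folate enzyme, had groups apart at 0.25 ± 0.08 (SE; limma adjusted p = 0.288). The thioredoxin clients, 4 tested of 7, were all below 0 with a median of -0.12. Groups were apart for 1 of these 4 (25%), against 10.2% of all tested genes. That gene was Msrb2, a mitochondrial methionine sulfoxide reductase. Msrb2 averaged 2866 ± 239 (SD, n = 3) in the knockout and 4388 ± 808 (SD, n = 4) in the wild type. The difference was -0.60 ± 0.17 (SE; limma adjusted p = 0.262). Thioredoxin and peroxidase relatives (median 0.01, 11 tested of 15), other selenoproteins (median -0.02, 13 tested of 17) and selenoprotein synthesis genes (median -0.05, 4 tested of 8, all below 0) had no gene at an unadjusted p under 0.05 and none with groups apart. Txnip, the thioredoxin inhibitor, named after its values were seen, differed by -0.29 ± 0.21 on its brightest probe set. The other tested probe set of Txnip differed by -0.02 ± 0.15. The median of all tested genes was 0.00.

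**Figure D5:**
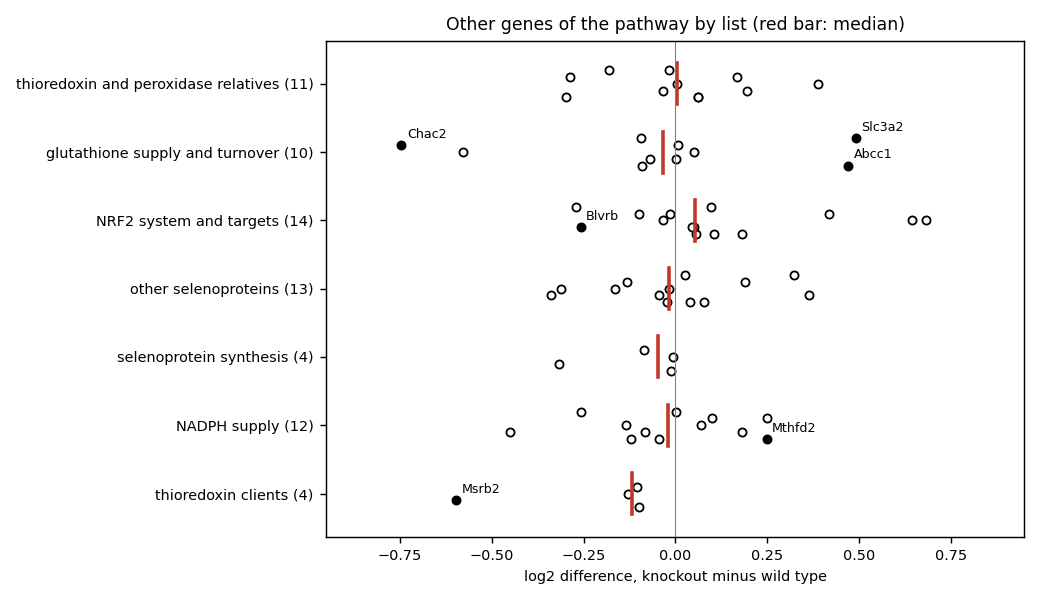
Log2 difference, knockout minus wild type, of the 68 tested pathway genes in 7 lists, with the number of tested genes in parentheses and the list median as a red bar. Filled, named points are the 6 genes whose groups do not overlap; the medians lie between -0.12 and 0.05.

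Profiles over the 7 arrays were compared by root mean square distance of centred log2 values. Genes compared had to pass a lower limit on their SD, set from that of the member, with no upper limit. Nearest to Gpx3 among 638 such genes were Lgals3 at 0.20, Efhd2 at 0.30 and Cp at 0.30. Lgals3 encodes galectin-3, a lectin abundant in macrophages, and Cp encodes ceruloplasmin, a secreted copper oxidase. Lgals3 read 3226, 1573 and 2412 on the knockout arrays, against 648, 1132, 1283 and 771 on the wild-type arrays. Nearest to Txnrd1 among 3250 genes were Ap3b1 at 0.09, Elovl1 at 0.12 and Clip1 at 0.12. Ap3b1, a subunit of an adaptor complex of vesicle sorting, read 5240, 4212 and 3371 on the knockout arrays, against 2545, 2863, 2264 and 2856 on the wild-type arrays. Its other tested probe set differed by -0.05, so Ap3b1 is named for 1 of its probe sets alone. Nearest to Txnrd2 among 8163 genes were Acbd6 at 0.03, Mef2b at 0.04 and Hic2 at 0.04, where the small spread of Txnrd2 (SD 0.14) leaves many genes close. Likeness over 7 arrays includes the difference between the groups and the arrays' shared quality, and is a description.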

How the data were processed

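The authors deposited 1 table of single-colour array intensity values for 22690 probe sets on a linear scale; no label or header used here states its software, background correction or scaling. The deposited experiment sheets, used as other information, gave the hybridization days. No deposited column of array values was left out.

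After 64 control probe sets were dropped, values were taken as log2(intensity + 16), so that differences of dim probe sets are understated, and 13836 probe sets passed the filter. A platform table named exactly 1 gene for 20380 probe sets, several for 691 and none for 1555, and the GRCm38.p6 gene table matched 20351. A gene was read by its brightest tested probe set (8869 genes). Groups were compared with limma 3.58.1 (eBayes with trend, two-sided, no covariate, Benjamini-Hochberg) in R 4.3.3, checked on simulated data. SEs are limma's moderated ones.

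The members and lists were chosen with earlier results of these data known. Genes named are the members, Nos3, per pathway list up to 3 genes with the smallest p whose groups are apart, the 3 nearest profiles of Gpx3, Txnrd1 and Txnrd2, and the brightest marker; others are stated as chosen later. Marker sums of other tissues were: endothelium (6 of 6 tested, brightest Kdr) 14847 to 16637 in the knockout and 11094 to 15356 in the wild type; smooth muscle (3 of 4, Acta2) 10622 to 13843 and 7094 to 12626; fibroblast (5 of 5, Dcn) 17362 to 30081 and 16192 to 33339; lymphocyte (3 of 4, Cd3e) 3408 to 3823 and 3316 to 4507. The red blood cell and fat lists each had 1 tested member of 5, Alas2 at 2598 to 6484 in the knockout and 1649 to 2123 in the wild type, and Fabp4 at 33460 to 37432 in the knockout and 35210 to 41822 in the wild type. Ventricular muscle (6 of 6, Myl2) was at the upper limit for 5 of its members. Brightest atrial and macrophage markers were Myl4 and Csf1r. The number of arrays, 3 and 4, limits the precision. Pairs of arrays correlated at 0.973 to 0.992 on the log2 scale, and none was a duplicate.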

Additional observations from a re-analysis of the deposited data

Results flagged for a closer look

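Of 23 sets of values checked over the 4 wild-type arrays (the members, Nos3 and the named pathway genes), 2 had an array far from the others by Dixon's ratio, and chance flags about 1 in 20. For Gpx1 1460671_at the ratio was 0.928: wild-type M23 read 6601, and the other wild-type arrays read 9120 to 9314. For Gpx4 1456193_x_at it was 0.881: wild-type M128 read 31750, and the other wild-type arrays read 29634 to 29886. M23 is the array with the lowest Gapdh ratio, and its sheet notes that results of both an initial and a repeat processing were joined. The part of this in the Gpx1 value was not tested.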

How the results depend on the processing

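All 22 alternatives kept the sign of Gpx3 (0.88 to 1.69), of Txnrd1 1421529_a_at (0.57 to 0.86), of Txnrd2 1449097_at and of Gpx4 1456193_x_at. Of 348 values of the 16 probe sets, 31 had the other sign and 13 moved by more than 1 SD. Some of the 348 could not move. Other filters, eBayes without trend and the mean over a gene's probe sets leave the difference of a single probe set unchanged. Day as a fixed block gives the same difference as M140 minus M128 alone. Probe sets past an adjusted p of 0.05, 0 in the stated analysis, numbered 619 with array weights, 1 with the 60th percentile filter, 1 with day as a fixed block, 1 without M23 and M158, 2 without M10 and M125, and 0 to 79 with single arrays left out (79 without knockout M10, 27 without knockout M140). The 619 of 13836 with array weights included 2 of the 16 member probe sets, Gpx3 1449106_at and Txnrd1 1421529_a_at. Since the members were chosen with this comparison known, that count is a description and no test of them. Of the 68 pathway genes 2 passed with array weights, Slc3a2 and Msrb2, while over all 8869 tested genes up to 403 passed in the alternatives. An unadjusted p under 0.05 was found with array weights for 17 of the 68, and with single arrays left out for 4 to 11. The share of all tested genes at that p was not counted in these settings, so these counts have no background beside them. With single arrays left out, the count of member probe sets apart ran from 4 to 8. Groups that are apart stay apart when an array is dropped, so the count apart could not fall below 4. Gpx3 minus Gpx1 was 0.76 with day as a fixed block and in M140 minus M128 alone, which rest on the same day. Txnrd1 minus Txnrd2 was 0.50 with the mean of all probe sets. The cause of the other shifts was not tested. The Gapdh covariate and the omission of M10 with M125 were chosen after seeing the data. No paired analysis was possible because no mouse number occurs in both groups.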
